A study of Mus musculus with 2 samples.

Results

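The D cyclins, their kinases CDK4 and CDK6 and the inhibitors of these kinases were examined in cultured mouse ovaries treated with tachykinin receptor (TKR) ligands. The set comprised 10 genes, namely Ccnd1, Ccnd2, Ccnd3, Cdk4, Cdk6, Cdkn1a, Cdkn2a, Cdkn2b, Cdkn2c and Cdkn2d. They were represented by 16 of the 55681 probes of the array, chosen because the RefSeq accession that names the probe belongs to one of these genes. Pieces of ovaries from 2-week-old mice were cultured for 3 days with agonists or with antagonists of the receptors TACR1, TACR2 and TACR3. The agonists were [Sar9, Met(O2)11]-SP for TACR1, GR-64349 for TACR2 and a succinylated substance P fragment for TACR3. The antagonists were a nonpeptide compound for TACR1, GR-94800 for TACR2 and SB218795 for TACR3, and each ligand was given at 1 μM. RNA of each group was labelled with Cy3 and hybridised to 1 single-colour array of probes for mouse transcripts. The antagonists were used together, as the study describes it. The number of ovaries behind each RNA and the strain of these mice are not given in the sources used here. Ovaries without ligand were not analysed here.

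Cyclins D1, D2 and D3 are the cyclins that respond to growth signals outside the cell. They bind CDK4 or CDK6, and the active kinase phosphorylates the retinoblastoma protein, which releases E2F transcription factors and opens the way into S phase. The INK4 proteins, encoded by Cdkn2a to Cdkn2d, bind CDK4 and CDK6 themselves and keep D cyclins off, whereas p21, encoded by Cdkn1a, binds assembled cyclin and kinase pairs and acts mainly on CDK2. In the mouse ovary, cyclin D2 is known as the D cyclin through which granulosa cells proliferate, and females that lack it are infertile.

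Each group has 1 array, which leaves the variation from ovary to ovary unmeasured, so no test was made and ratios carry the error of the spots only. The 75th percentile of the array, 672 signal units with the agonists and 569 with the antagonists, was subtracted from each signal on the log2 scale. A log2 ratio is the scaled agonist value minus the scaled antagonist value. Of 59305 spots that were not controls, 65.4% with the agonists and 61.6% with the antagonists were well above background by the scanner software's own criterion, and 0 were saturated. Both arrays detected 33073 probes well above background, and their median log2 ratio of -0.10 moved to 0.14 with no scaling and to 0.15 when spike-in controls set the scale. Since the scale moves the median of all probes, a member is also described by how many of those 33073 probes had a lower ratio. The RNA came from whole pieces of ovary, so fewer cells of a type and less RNA per cell cannot be told apart.

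Of the 16 member probes, 14 were well above background on both arrays, 1 on the agonist array only and 1 on neither. None of the 14 differed by 2-fold. Among all probes 2.69% passed 2-fold on the agonist side and 0.705% on the antagonist side, so the count of 0 of 14 is near the background. At 1.5-fold, 3 of the 14 were lower with the agonists, against 4.9% of all probes, and 0 were higher, against 6.95%. Of the 14 probes, 10 had a log2 ratio below 0 and 4 above it, against 63.1% and 36.9% of all probes. By gene, at the same limit, 3 of 10 were lower with the agonists, Ccnd2, Cdkn2c and Cdkn2d, against 4.28% of the 15260 named genes on the array, and 0 of 10 were higher, against 9.26%. The count depended on the scaling, and so did the share over all named genes. Cdkn2d alone passed the limit unscaled or on spike-in controls, where 1.29% of all named genes did. Ccnd2 and Cdkn2d passed it in 4 other settings, where between 2.06% and 3.01% of all named genes did. The median log2 ratio of the 10 genes, each represented by its brightest probe, was -0.11, close to the median of -0.10 over all named genes. Of the 10 genes, 6 had a ratio below 0 and 4 above it, near the 62.3% and 37.7% of all named genes. The set as a whole therefore lay at the centre of the array, and its members were spread from -0.89 for Cdkn2d to 0.33 for Ccnd1.

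**Figure D1:**
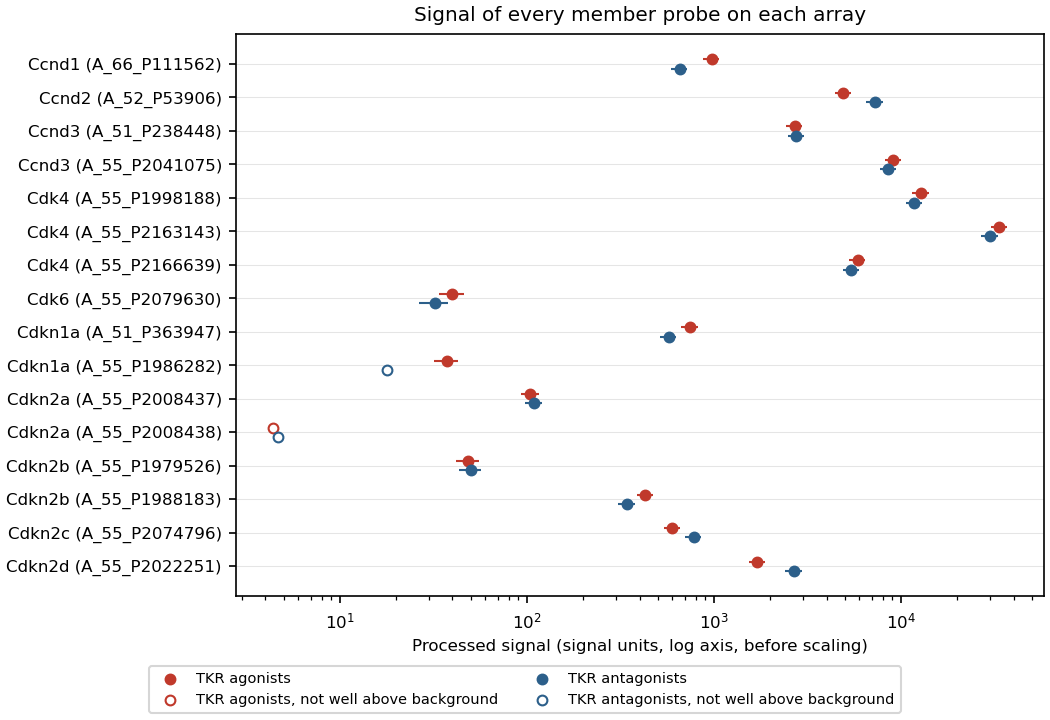
Processed signal (signal units, log axis, before scaling) of each of the 16 member probes on the agonist array (red) and the antagonist array (blue); bars are the software's error of the spot, open circles are signals not well above background and carry no bar. Ccnd2, Cdkn2c and Cdkn2d lay higher on the antagonist array, and Ccnd1 lay higher on the agonist array; the position of different probes along the axis is no comparison of levels between genes.

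The D cyclins differed among themselves. Ccnd1, encoding cyclin D1, had a signal of 972 with the agonists and 656 with the antagonists on its 1 probe (NM_007631). Its log2 ratio was 0.33 ± 0.20 (the software's error of the spots), or 1.25-fold higher with the agonists, and 86.3% of all probes had a lower ratio. Ccnd2, encoding cyclin D2, had a signal of 4918 with the agonists and 7254 with the antagonists (NM_009829). The signal of Ccnd2 was thus lower on the agonist array, opposite to that of Ccnd1. The log2 ratio of Ccnd2 was -0.80 ± 0.20, or 1.74-fold higher with the antagonists, and 569 of the 33073 probes (1.72%) had a lower ratio. Ccnd3, encoding cyclin D3, was measured by a pair of probes designed on different transcripts of the gene. The brighter probe (NM_001081636) had a signal of 9096 with the agonists against 8548 with the antagonists, which gave a log2 ratio of -0.15 ± 0.20. The other probe (NM_007632) had 2703 against 2762, which gave -0.27 ± 0.20. The ratios of these probes were 0.12 apart, within the spot error of 0.29 for such a difference. The sign of the brighter probe depended on the scaling (between -0.21 and 0.09), so no direction is given for Ccnd3. The other probe lay between -0.33 and -0.03. Of all probes, 41.7% had a ratio below that of the brighter Ccnd3 probe and 24.6% below that of the other.

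A difference between the ratios of 2 genes does not depend on a constant that scales an array. For genes measured at 1 spot, most settings therefore return the same difference by construction. Only quantile scaling, loess and normexp could move it. The log2 ratio of Ccnd1 exceeded that of Ccnd2 by 1.13, with a spot error of 0.29, and by between 1.06 and 1.15 over 11 settings of scaling, background correction and spot summary. The ratio of Ccnd3 exceeded that of Ccnd2 by 0.65, and by between 0.64 and 0.73 over the same settings. Ccnd1 and Ccnd2 kept opposite signs in each of the 11 settings, with Ccnd1 between 0.27 and 0.57 and Ccnd2 between -0.86 and -0.56. Each of these genes rests on 1 spot per array for each probe, and the spread between ovaries is not known. For a probe at 1 spot, the settings of spot summary repeat the main value, and most others shift all probes by a constant. A sign kept over the 11 settings is therefore not 11 separate checks.

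**Figure D2:**
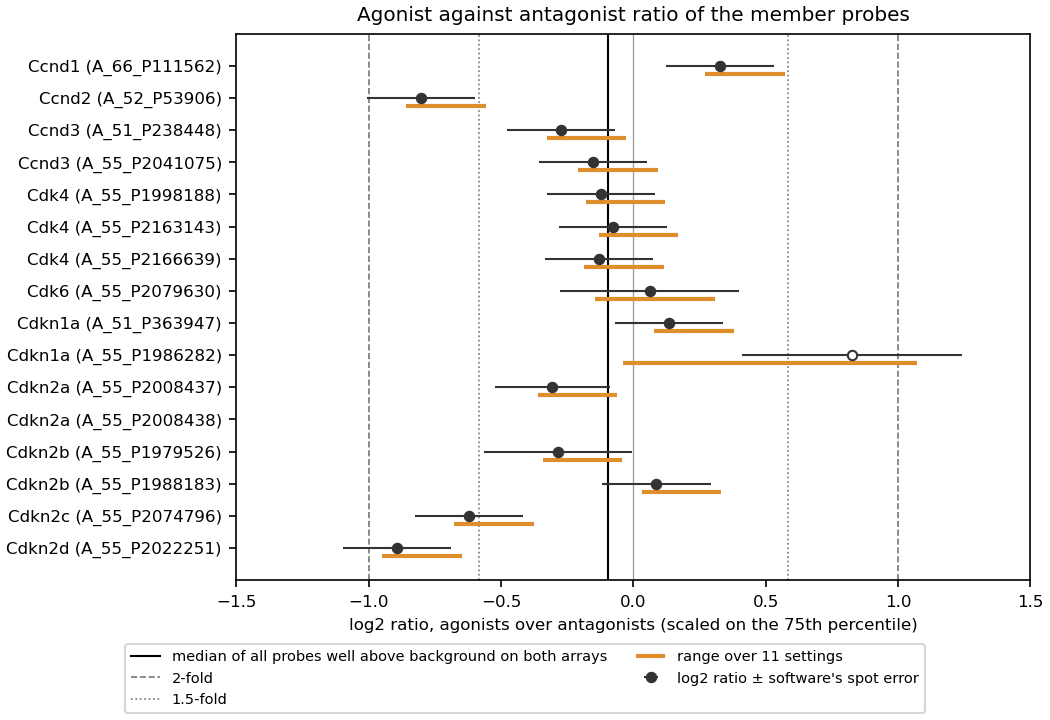
Log2 ratio of agonists over antagonists for the 15 member probes well above background on at least 1 array; points are the ratios scaled on the 75th percentile with the software's spot error, the open point was not detected above background on the antagonist array, orange bars are the range over 11 settings, and vertical lines mark the median of all probes, 1.5-fold and 2-fold. Ccnd2 (-0.80), Cdkn2c (-0.62) and Cdkn2d (-0.89) lay on the antagonist side, Ccnd1 (0.33) lay on the agonist side, and the 3 Cdk4 probes lay between -0.13 and -0.08, at the median of all probes.

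Of the kinases, Cdk4 lay near the median of all probes. Cdk4, the main partner of D cyclins in most proliferating cells, was measured by 3 probes of the transcript NM_009870, each at 1 spot. Their signals with the agonists were 33556, 12777 and 5862, and with the antagonists 29923, 11781 and 5430 in the same order. Their log2 ratios were -0.08, -0.12 and -0.13, each with a spot error of 0.20. The outermost of these ratios lay 0.05 apart, although their signals differ, and 45.9% of all probes had a ratio below that of the middle one. Cdk6, the other kinase that D cyclins activate, had a dim probe (NM_009873) with a signal of 39.8 with the agonists and 32.3 with the antagonists. Both signals were well above background, the log2 ratio was 0.06 ± 0.34, and 69.6% of all probes had a lower ratio. For the brightest Cdk4 probe the sign depended on the scaling (between -0.13 and 0.17), and so it did for Cdk6 (between -0.14 and 0.31), so no direction is given for either kinase. The ratio of Cdk4 exceeded that of Ccnd2 by 0.73, and by between 0.71 and 0.74 over the 11 settings, most of which cannot move it.

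Cdkn1a, encoding p21, was printed at 10 spots of 1 probe (NM_007669), while every other member probe had 1 spot. The agonist signals ranged from 676 to 784 and averaged 744 ± 32.8 (SD, 10 spots). The antagonist signals ranged from 543 to 599 and averaged 573 ± 21.3 (SD, 10 spots). Before scaling each agonist spot was brighter than each antagonist spot. After scaling the spots overlapped, with log2 values from 0.01 to 0.22 for the agonists and from -0.07 to 0.07 for the antagonists. Of all probes, 76.0% had a lower ratio than this probe. The log2 ratio was 0.13 ± 0.20 (the software's error, as for the other members), and the SD between spots was 0.05. This SD describes the printing and reading of spots, not the ovaries. The ratio was above 0 in each of the 11 settings, between 0.08 and 0.38. A second probe, designed on another transcript of the gene (NM_001111099), had a signal of 37.3 with the agonists and 17.8 with the antagonists at 1 spot each. The antagonist signal was not well above background, so the second probe gives a lower bound alone, at least 1.58-fold higher with the agonists, computed against the lowest signal well above background on the antagonist array. With the normexp background correction the log2 ratio of this dim probe was -0.04, so its direction depends on how the background is estimated.

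**Figure D3:**
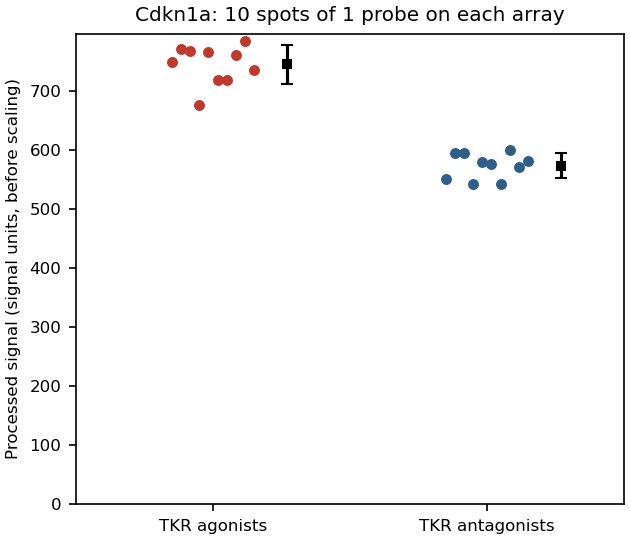
Processed signal (signal units, before scaling) of the 10 spots of the Cdkn1a probe on each array; squares and bars are the mean and SD over spots of 1 array. The agonist spots ranged from 676 to 784 and the antagonist spots from 543 to 599; scaling on the 75th percentile brings the spots of the arrays into overlap.

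Among the INK4 inhibitors the ratios of Cdkn2c and Cdkn2d were the lowest. Cdkn2d, encoding p19INK4d, whose RNA is known to rise in S phase in cultured cells, had a signal of 1703 with the agonists and 2676 with the antagonists (NM_009878). Its log2 ratio was -0.89 ± 0.20, or 1.86-fold higher with the antagonists, and 370 of the 33073 probes (1.12%) had a lower ratio. Cdkn2c, encoding p18INK4c, had a signal of 599 with the agonists and 779 with the antagonists (NM_007671). Its log2 ratio was -0.62 ± 0.20, or 1.54-fold higher with the antagonists, and 4.12% of all probes had a lower ratio. Both genes were below 0 in each of the 11 settings, Cdkn2d between -0.95 and -0.65 and Cdkn2c between -0.68 and -0.38. Most of these settings only repeat the main value or shift all probes by a constant. The ratios of Cdkn2d and Ccnd2 differed by less than their spot error, and so did those of Ccnd2 and Cdkn2c.

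The other INK4 genes are those known for senescence and arrest. Cdkn2b, encoding p15INK4b, a target of TGF-beta signals in epithelial cells, had a signal of 430 with the agonists and 342 with the antagonists on its brighter probe (NM_007670). The log2 ratio of that probe was 0.09 ± 0.21. The dimmer Cdkn2b probe had signals of 48.5 and 50.05 and a log2 ratio of -0.29 ± 0.28. The probes of Cdkn2b were 0.37 apart with a spot error of 0.35 for the difference, so no direction is given for the gene. Cdkn2a, the locus of p16INK4a and of p19ARF, which stabilises p53, had 1 probe well above background with signals of 104 and 109 (NM_009877) and a log2 ratio of -0.31 ± 0.22. It was below 0 in each of the 11 settings, between -0.36 and -0.06, and the highest value was nearer to 0 than the spot error of 0.22. Its distance of 0.31 from the ratio of Cdkn2c was close to the spot error of 0.30 for that difference. Its other probe had signals of 4.40 and 4.66 and was not well above background on either array. The log2 ratio of Cdkn2b exceeded that of Cdkn2d by 0.98 on the brighter probe and by 0.61 on the dimmer one. The former difference lay between 0.89 and 0.98 over the 11 settings, most of which cannot move it.

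Promoter sequences from RefSeq (GRCm38.p6) matched 8 of the 10 genes at 12 transcript starts; Ccnd1 and Ccnd2 had no entry. The 250 bases before the start are shown for Cdkn2d and Cdkn2c, the members with the lowest ratios among those 8 genes, and for Cdk4, whose ratio lay near the median of all probes. Capitals mark GC boxes (GGGCGG) and E-boxes (CACGTG), searched on both strands; in these windows no base lay in more than 1 match.
Cdkn2d, chr9:21291210-21291459, minus strand: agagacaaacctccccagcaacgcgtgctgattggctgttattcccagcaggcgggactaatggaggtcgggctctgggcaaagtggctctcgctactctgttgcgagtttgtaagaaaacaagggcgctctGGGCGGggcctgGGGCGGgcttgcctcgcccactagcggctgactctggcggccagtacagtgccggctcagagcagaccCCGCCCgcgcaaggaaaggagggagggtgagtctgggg
Cdkn2c, chr4:109666757-109667006, minus strand: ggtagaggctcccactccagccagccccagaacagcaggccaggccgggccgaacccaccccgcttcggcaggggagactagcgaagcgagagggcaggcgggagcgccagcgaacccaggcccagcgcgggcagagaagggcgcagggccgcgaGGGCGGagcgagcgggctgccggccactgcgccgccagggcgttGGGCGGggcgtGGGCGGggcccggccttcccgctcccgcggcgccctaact
Cdk4, chr10:127063285-127063534, plus strand: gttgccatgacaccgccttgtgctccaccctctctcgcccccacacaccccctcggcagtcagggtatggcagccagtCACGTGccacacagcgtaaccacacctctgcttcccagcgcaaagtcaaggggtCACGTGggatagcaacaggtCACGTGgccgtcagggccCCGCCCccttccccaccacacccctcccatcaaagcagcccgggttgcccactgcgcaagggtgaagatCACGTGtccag
The Cdkn2d and Cdkn2c windows held 3 GC boxes each, a number reached by 8.47% of the 32851 promoter windows of this length, and the Cdk4 window held 1. G and C made up 63.6% of the Cdkn2d window, 77.2% for Cdkn2c and 64.4% for Cdk4. The median over all windows was 52.4%, so the share of 8.47% does not compare windows of like G and C content. The Cdk4 window held 4 E-boxes, the site bound by MYC and related factors, and 7 of the 32851 windows held that many. None of these 3 windows held the E2F site in the forms TTTCCCGC, TTTCGCGC, TTTGGCGC or TTTGCCGC, which 1.86% of all windows did. Of the 12 member windows 1 held it, at position -99 from the upstream start of Cdkn2a. A second start of Cdkn2c, chr4:109665373-109665622, held 0 GC boxes. These matches describe the letters of the windows, and binding was not measured.

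Downstream of the D cyclins, genes of the same pathway mostly had a log2 ratio below 0, as did 62.3% of all named genes. Of the 13 genes of the retinoblastoma and E2F families, 12 had a log2 ratio below 0 and 0 were 2-fold apart, with a median of -0.41 against -0.10 for all named genes. Rb1 itself, the main substrate of CDK4 and CDK6, had -0.37, the activators E2f1 and E2f2 had -0.41 and -0.24, and the repressor E2f6 had -0.41. Among 8 genes of the CDK2 module and the CIP/KIP inhibitors, 7 were well above background on both arrays, and no probe carried an accession matched to Skp2. For these 7, 6 were below 0, against 62.3% of all named genes. Their median was -0.21, which turned to 0.03 unscaled and to 0.03 when spike-in controls set the scale. Ccne1, encoding cyclin E1, which activates CDK2 after the D cyclins have acted, had a signal of 903 with the agonists and 1764 with the antagonists. Its log2 ratio was -1.21 ± 0.20, or 2.31-fold higher with the antagonists, its other probe gave -1.14, and over the settings the brighter probe lay between -1.26 and -0.96. It was 1 of 88 named genes (0.577%) at least 2-fold lower with the agonists. Cdkn1c, encoding the inhibitor p57, had a signal of 1944 with the agonists and 499 with the antagonists. The log2 ratio of Cdkn1c was 1.72 ± 0.20, or 3.29-fold higher with the agonists, and it stayed between 1.47 and 1.96 over the settings. It was 1 of 612 named genes (4.01%) at least 2-fold higher. The related inhibitor Cdkn1b, encoding p27, had 4832 and 4740 and a log2 ratio of -0.21, so the CIP/KIP genes did not share a direction. Ccna2, encoding cyclin A2 of S and G2 phase, had -0.75, and Cdc25a, the phosphatase that activates CDK2, had -0.19.

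Among 13 S phase genes that E2F factors are known to drive, 12 were below 0, against 62.3% of all named genes. Their median was -0.39, and 0 were at least 2-fold apart. Pcna, the sliding clamp of DNA polymerases, had -0.59, and the subunits of the replicative helicase Mcm6, Mcm7 and Mcm4 had -0.33, -0.31 and -0.37. Of 12 genes of mitosis, 12 were below 0 on their brightest probe, against 62.3% of all named genes. Their median was -0.51 and their range from -0.77 to -0.33. Another probe of Cdk1 gave 0.03. The proliferation marker Mki67 had -0.69 and the activator of the anaphase-promoting complex Cdc20 had -0.69, while Birc5 (-0.33) and Ccnb1 (-0.36), a subunit of the passenger complex and the mitotic cyclin, lay nearer to 0. The medians of these 3 lists stayed below 0 in each of the 11 settings, with highest values of -0.16 for the retinoblastoma and E2F families, -0.15 for S phase and -0.26 for mitosis. The ratios of Ccnd2, Cdkn2c and Cdkn2d lay below the median of each of these lists, and those of Ccnd1, Cdk4 and Cdkn1a above it.

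The 15 genes of p53 and its targets, a group to which Cdkn1a belongs by its regulation, lay at the centre of the array. Of these, 8 were below 0, against 62.3% of all named genes, and the median was -0.11. Mdm2, Bax, Aen and Phlda3 had -0.16, -0.19, -0.17 and 0.25, and Trp53 had -0.11. The 9 Polycomb genes, which keep the Cdkn2a and Cdkn2b locus silent in many cells, had a median of -0.22, with 6 below 0, near the share of 62.3% over all named genes. The brightest of them, Eed, Bmi1, Ezh2 and Suz12, had -0.13, -0.33, -0.27 and -0.22. Among 9 genes of D cyclin turnover and CDK activation, 7 were below 0, against 62.3% of all named genes, and the median was -0.15. Gsk3b, a kinase that marks cyclin D1 for export and degradation, had -0.21 on its brightest probe and up to 0.41 on another, Fbxo31 -0.52 and Ambra1 -0.13. Mycn had -0.998 with signals of 2147 and 3628. The medians of these lists had no fixed sign over the settings, reaching 0.14, 0.02 and 0.09 with spike-in scaling.

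**Figure D4:**
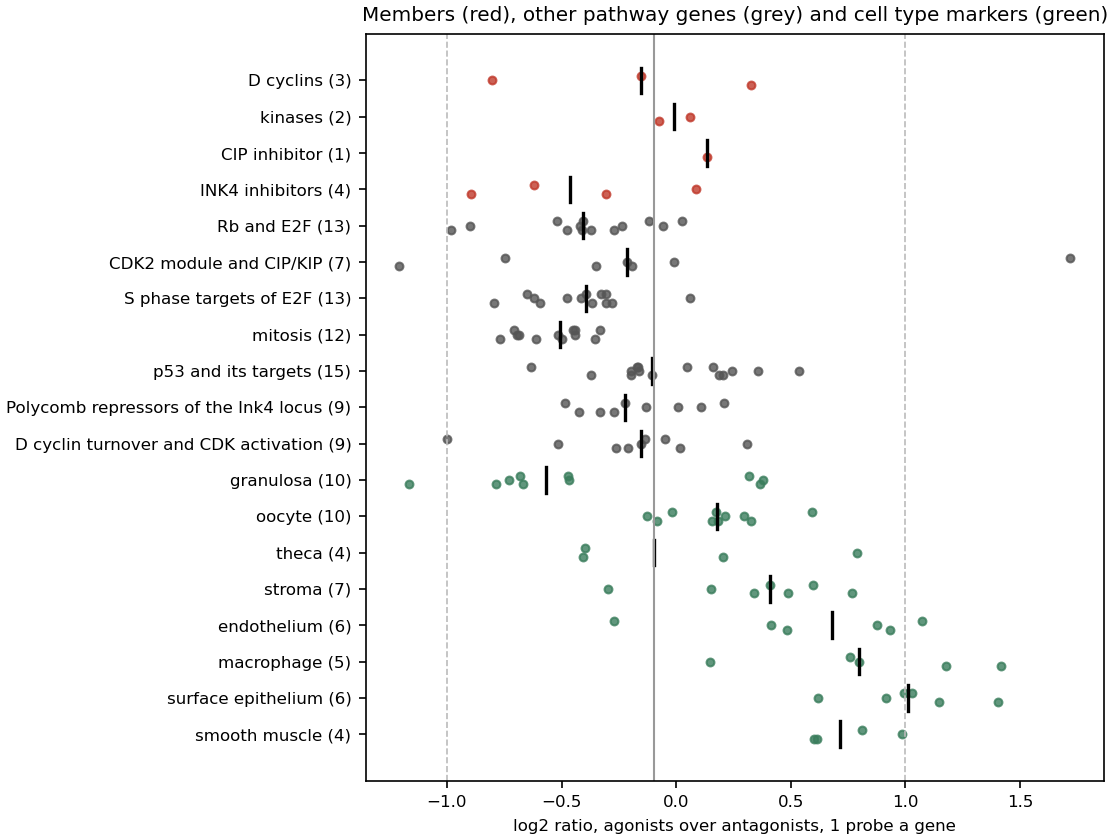
Log2 ratio of agonists over antagonists for each gene well above background on both arrays (points, 1 probe a gene), grouped by role for the members (red), other genes of the pathway (grey) and markers of ovarian cell types (green), with the number of genes in parentheses; black ticks are list medians, the grey line is the median of all named genes (-0.10) and dashed lines are 2-fold. The mitosis genes all lay below 0, the surface epithelium markers all lay above 0, and the members spread across the median.

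Markers of ovarian cell types were read on the same arrays. Of 10 granulosa markers, 7 were below 0, near the 62.3% of all named genes, with a median of -0.57 against -0.10 and a summed level of 179 times the 75th percentile with the agonists and 222 with the antagonists. The other 3, Amhr2, Foxl2 and Cyp19a1, were above 0, although another probe of Foxl2 gave -0.37. Markers of other cells were mostly above 0, against 37.7% of all named genes. The counts above 0 were 7 of 10 for oocytes (median 0.18, summed level 245 against 249) and 6 of 7 for stroma (0.41, 407 against 339). For endothelium they were 5 of 6 (0.68, 68.4 against 58.0) and for macrophages 5 of 5 (0.80, 12.5 against 9.64). For surface epithelium they were 6 of 6 (1.01, 37.1 against 17.4) and for smooth muscle 4 of 4 (0.71, 37.8 against 23.1). Of 4 theca markers 2 were above 0, against the same 37.7% (median -0.10, summed level 85.1 against 84.1). Other probes of Csf1r, Kdr and Star gave -0.09, 0.38 and 0.01, on the other side of 0 from the probes counted. Tek, Cd68, Ptprc, Des, Lhcgr and Insl3 could not be counted, since no matched probe of theirs was well above background on both arrays. Matched probes existed for 5 of the 6 theca genes and 6 of the 7 macrophage genes, so some of these had no probe to read. The ratio of Ccnd2 was below 0, as was the granulosa median. The theca median of -0.10 was that of all named genes, and its sign depended on the scaling (between -0.15 and 0.15). The ratio of Ccnd1 was above 0, as were 3 granulosa markers and the medians of cell types other than granulosa and theca. The part of cell type shares in the ratios of Ccnd1, Ccnd2, Cdkn2c, Cdkn2d, Ccne1 and Cdkn1c was not tested, and in this design such shares and the ligands cannot be told apart.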

How the data were processed

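The authors had RNA from the cultured ovaries labelled with Cy3, hybridised to SurePrint G3 Mouse GE arrays and read with Agilent Feature Extraction, per the labels and the methods. They deposited linear spot intensities that the software had background-corrected. Their summary table of intensities equalled the processed signal times a constant per array (largest relative deviation 4.97e-10). The constant was 1.99 for the agonist array and 2.19 for the antagonist array, so the summary values are scaled differently on each array.

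Control spots and spots marked as outliers were left out, log2 signals were reduced by the 75th percentile of their array, and spots of a probe were averaged. Detection of a probe (well above background) required this of over 50% of its spots. RefSeq accessions were matched to symbols of GRCm38.p6, used for names because the array was designed on mm9; 27235 of 55681 probes matched. Probes of the members that other accessions name are not counted. The array files hold no gene name column and no probe sequence column. A gene was represented by its brightest probe well above background on both arrays. Spot errors of a ratio combine the software's errors of both signals; for the 284 probes printed at 10 spots and well above background at all of them, the SD of the log2 ratio between spots had a median of 0.07. The number of arrays limits the precision.

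The members and lists were chosen with earlier results of these data known. All member probes were named; of other pathway genes, those at least 2-fold apart and up to 4 of the brightest of each list were named, and genes given beyond this rule (Trp53, Skp2, the granulosa markers above 0 and the markers not counted) were chosen after their values were seen. Alternatives were other scalings, the authors' values, normexp (offset 50, on the median spot signal), loess (span 0.3), spot summaries, no filter and a 1.5-fold limit. The calculation was tested on simulated data. Python 3.11.15, numpy 2.4.6, pandas 2.3.3, matplotlib 3.10.9, R 4.3.3 and limma 3.58.1 were used.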

Additional observations from a re-analysis of the deposited data

How the results depend on the processing

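No paired analysis was possible because a group is a single array and nothing was tested. Over the alternatives, 135 values of member probes moved by less than their spot error and 25 by more; of the 25, normexp gave 1, and 12 each came from leaving out the scaling and from scaling on spike-ins, which move all probes by a constant. The count of member probes at least 2-fold apart was 0 in each setting at that limit. With the 1.5-fold limit 3 of 14 were lower, against 4.9% of all probes. At 1.5-fold, the member genes lower with the agonists were Cdkn2d alone when unscaled or scaled on spike-ins, where 1.29% of all named genes were. They were Ccnd2 and Cdkn2d with loess, normexp, the authors' values and scaling on probes detected on both arrays, where 2.06% to 3.01% were. The median of the member genes, -0.11, was 0.13 unscaled, 0.13 on spike-ins and 0.02 after loess. Over all probes, 890 higher and 233 lower at 2-fold became 1499 and 98 unscaled, 1509 and 97 on spike-ins, 410 and 60 by normexp, 3339 and 2333 unfiltered, and 2299 and 1620 at 1.5-fold; 149 were lower with the authors' values. The share of higher among these was 79.3% on the 75th percentile, 93.9% unscaled, 94.0% on spike-ins, 88.1% in the authors' values, 58.9% unfiltered and 58.7% at 1.5-fold. Signal over background limits Cdk6, the dim probes of Cdkn1a and Cdkn2b and both probes of Cdkn2a.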

Other observations

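Some neighbours of the D cyclin pathway, chosen after their values were seen, are given beside those that the rule for named genes picked. E2f8, a repressor of the E2F family, had a log2 ratio of -0.90, from signals of 270 (agonists) and 426 (antagonists), that stayed between -0.95 and -0.65 over the settings. Its relative E2f7 had 295 and 493 on its brighter probe, a log2 ratio of -0.98, while its other probe gave 0.14, so the probes of E2f7 disagree. Rrm2, a subunit of ribonucleotide reductase, had the lowest ratio of the S phase list, -0.80, with signals of 2509 and 3682. The MYC family genes lay on opposite sides, with Mycn at -0.998 (between -1.05 and -0.75 over the settings) and Myc at 0.31 (between 0.25 and 0.55), with signals of 759 and 518 for Myc.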
